A study of Mus musculus with 2 samples.

Results

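The barcodes described here carried Müller glia transcripts and little Malat1, a long noncoding RNA (ENSMUSG00000092341, chr19:5795690-5802672, minus strand, GRCm38) that stays in the nucleus. They were chosen by measured values: at least 300 genes, at most 20% mitochondrial unique molecular identifiers (UMIs), at least 1.5% of UMIs from 15 Müller markers, Malat1 under 5% of UMIs, and fewer than 5 UMIs from 7 bipolar cell genes. The rule found 740 of the 23625 deposited barcodes, 446 in the library titled Muller and 294 in MullerControl. The Müller barcodes that passed every other limit but held at least 5% Malat1 numbered 634 and 416, and serve as the Malat1-rich side.

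Both libraries came from mice aged 14 weeks on a B6.Cg background, line Hze/J, with the Cre-dependent reporter allele Gt(ROSA)26Sortm9(CAG-tdTomato). Their retinas were taken 8 weeks after an adeno-associated virus (AAV) was injected. Cells positive for tdTomato were sorted, at a positive rate of about 4.9% in the test arm and 10% in the control arm, and 27000 cells went into each droplet 3′ RNA library. The labels used here do not say what the viruses carried, which promoter drove them, or whether retinas were pooled, and Muller is taken as the test arm because the other library is titled MullerControl. Each arm is 1 library, so there is no replicate check and no test between arms. Intervals cover counting error only.

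Müller glia span the retina from the outer limiting membrane to endfeet at the vitreous. They take up glutamate and turn it into glutamine, clear potassium and water, and recycle retinoids for photoreceptors, and they keep many mRNAs in processes far from the nucleus. Dissociation can leave a droplet with cytoplasm, a piece of a cell, or free RNA, and a low share of nuclear RNA does not tell these apart.

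The 2 libraries held 12316 and 11309 barcodes with medians of 1478 and 1552 UMIs, and 11887 and 10404 of these passed the gene and mitochondrial limits. No deposited barcode had under 500 UMIs. The libraries shared 40 barcode sequences, and 0 of these were members in both.

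Malat1-poor Müller barcodes made up 3.75% of passing barcodes in Muller (exact 95% interval 3.42 to 4.11) and 2.83% in MullerControl (2.52 to 3.16). Of all Müller barcodes they made up 41.3% (38.3 to 44.3) of 1080 and 41.4% (37.8 to 45.1) of 710, a difference within counting error. These like shares hold for all depths together. At 1000 UMIs or more, 70 members stood beside 588 Malat1-rich barcodes in Muller, and 111 beside 371 in MullerControl. Those counts leave out the microglia and pigment epithelium barcodes set apart below. Low Malat1 was also common among barcodes with at least 3% of UMIs from 13 rod genes and under 1.5% from Müller markers, where 44.3% of 4764 and 52.2% of 7009 fell under the same limit. The sort gate, with its different positive rates, touches every share of barcodes compared between libraries.

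The members were shallow. Their median depth was 662.5 UMIs and 464 genes in Muller, and 905.5 UMIs and 559 genes in MullerControl, against 2387 and 4260.5 UMIs on the Malat1-rich side. In Muller, 281 of 446 members lay between 500 and 750 UMIs. Malat1 took a median 1.20% of UMIs in the Muller members and 0.42% in the MullerControl members, against 17.7% and 13.1% in Malat1-rich barcodes. Few barcodes lay between the sides, with 7 and 6 members at 4% to 5% Malat1 and 7 and 9 Malat1-rich barcodes at 5% to 6%. The 7 Muller members just under that limit had a median 892 UMIs and the 7 barcodes just over it 1094 (806 and 1229 in MullerControl). The marker limit cut through a continuum: 49 and 20 members lay within 0.25 percentage points above it, and 46 and 29 barcodes within 0.25 points below it. The former had medians of 623 and 824 UMIs and the latter 645.5 and 993. At the bipolar limit, 37 Muller members held 3 or 4 UMIs and 6 barcodes missed with 5 or 6, and MullerControl had 0 on either side.

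**Figure D1:**
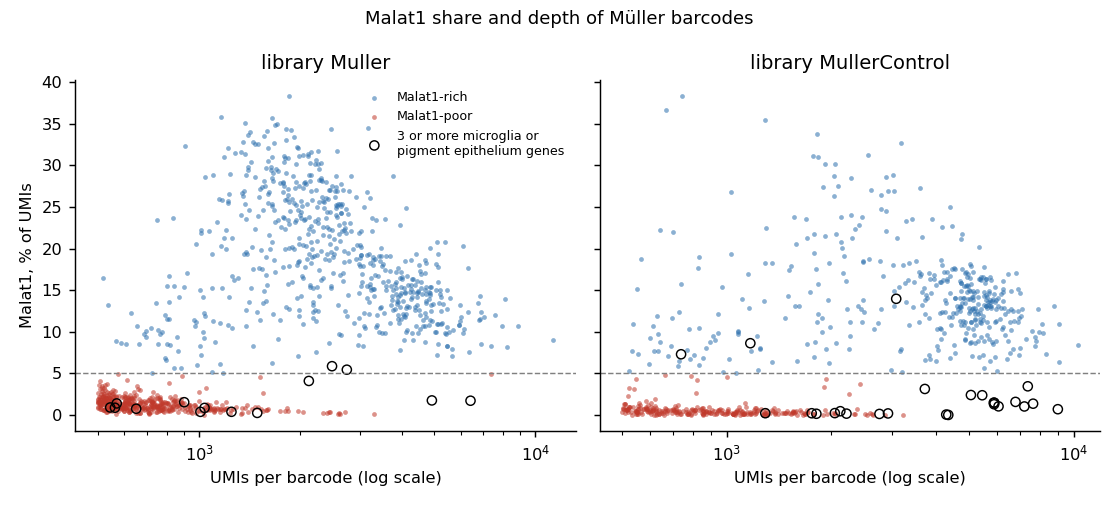
Malat1 as a percentage of UMIs (y axis) against UMIs per barcode (x axis, log scale) for every Müller barcode of each library, with the 5% limit dashed. The Malat1-poor barcodes (red) sit mostly under 1000 UMIs and the Malat1-rich barcodes (blue) mostly above 1000, while open circles mark barcodes with at least 3 microglia or pigment epithelium genes, several of them deep and Malat1-poor.

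The rule required Müller markers, so finding them does not show that each member came from a Müller cell. Members were set apart only for transcripts of microglia or pigment epithelium. Rod transcripts were present in nearly every member, and barcodes with transcripts of rods or other neurons were kept. The barcodes set apart were 12 in Muller and 22 in MullerControl. Of these, 9 and 18 held at least 3 genes of the microglia list. The other 3 and 4 held at least 3 of the pigment epithelium list. These 12 and 22 barcodes held a median of 2.5 and 2 of the 15 markers. Their median depth was 1023.5 UMIs in Muller and 4701.5 UMIs in MullerControl. They supplied 5.84% of the members' UMIs and 30.1% of their Apoe UMIs in Muller, and 27.0% and 57.6% in MullerControl. Summed over the members, the 12 microglia genes reached 2575 and 13543 UMIs per 1000000 UMIs other than Malat1 (CPM, the scale of every level below). With those barcodes left out, 36 and 14 UMIs of the list were left, with 6 and 7 of its 12 genes at 0. The pigment epithelium list stood at 595 and 2796 CPM, and at 43.9 and 73.1 CPM without them. The 434 and 272 barcodes left made up 40.7% and 39.7% of Müller barcodes. Leaving out the 34 barcodes was a choice made after seeing the data. Because they hold so many of the MullerControl UMIs, many other MullerControl levels are higher when they are left out, and both values are given for a number of markers and lists. A level with no second value is over all members.

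The 15 markers were found in the members, which the rule required, but not in the proportions of Malat1-rich barcodes. A member held a median of 6 markers in Muller and 7 in MullerControl, against 13 and 14 on the rich side, at lower depth. Without the microglia and pigment epithelium barcodes, Glul, the glutamine synthetase of glia, was the leading marker in 70.3% and 57.0% of members. Apoe, a lipid carrier, led in 15.4% and 34.9%, and Clu, a secreted chaperone, in 10.1% and 2.94%. Apoe and Clu are also present in other cells and in free RNA. In rods, which were chosen with under 1.5% of UMIs from these markers, Glul stood at 388 and 145 CPM and Apoe at 286 and 105 CPM.

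Glul was at 11000 CPM in the Muller members and 8457 CPM in the MullerControl members, against 10422 and 12583 CPM in Malat1-rich barcodes. Without the microglia and pigment epithelium barcodes the members' levels were 11630 and 11398 CPM. Rlbp1, which binds retinaldehyde in the visual cycle, was at 2924 CPM (counting interval 2746 to 3112) and 3319 CPM (3107 to 3542) in those 434 and 272 barcodes, against 2076 and 2664 CPM in the matching rich barcodes. Crym, a thyroid hormone-binding crystallin, was at 632 and 716 CPM in the same members. Glul stood above the rich side in Muller and below it in MullerControl, with and without those barcodes, and the counting intervals did not overlap. Rlbp1 stood above it in both libraries once they were left out. Crym did so in MullerControl, against 558 CPM, and overlapped with the rich side in Muller, at 551 to 722 against 510 to 587 CPM. In all MullerControl members Crym was at 524 CPM.

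Most other markers stood lower, and not only those for membrane proteins. Dkk3 was at 1221 and 1201 CPM in the members against 2673 and 3222 CPM in rich barcodes. Sox9, a transcription factor, was at 232 and 163 CPM against 529 and 517 CPM. Slc1a3, the glutamate transporter GLAST, was at 576 and 420 CPM in the members and at 1811 and 1830 CPM in rich barcodes. Aqp4, the water channel of endfeet, was at 458 and 380 CPM against 1275 and 1268 CPM. Gpr37, an orphan receptor of glia, was at 510 and 313 CPM against 1733 and 1793 CPM. Kcnj10, the potassium channel Kir4.1, was at 110 and 128 CPM against 261 and 306 CPM. Without the microglia and pigment epithelium barcodes Slc1a3 was at 612 and 563 CPM, Aqp4 at 486 and 519, and Gpr37 at 539 and 424, and Kcnj10 in MullerControl was at 172 CPM. The rule used the sum of these genes, so their proportions are described here and support nothing. Of the 15, 11 were at least 1.5-fold lower in both libraries and 0 were higher. Clu and Sox2, among the 11, depended on depth. The log2 ratios of Clu turned from −0.65 and −1.12 to 0.34 and 0.47 against rich barcodes under 2000 UMIs, and to 0.56 and 0.73 with both sides at 750 to 2000 UMIs and no microglia or pigment epithelium barcodes. Those of Sox2 went from −0.90 and −1.47 to −0.46 and −0.01 in the latter comparison.

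**Figure D2:**
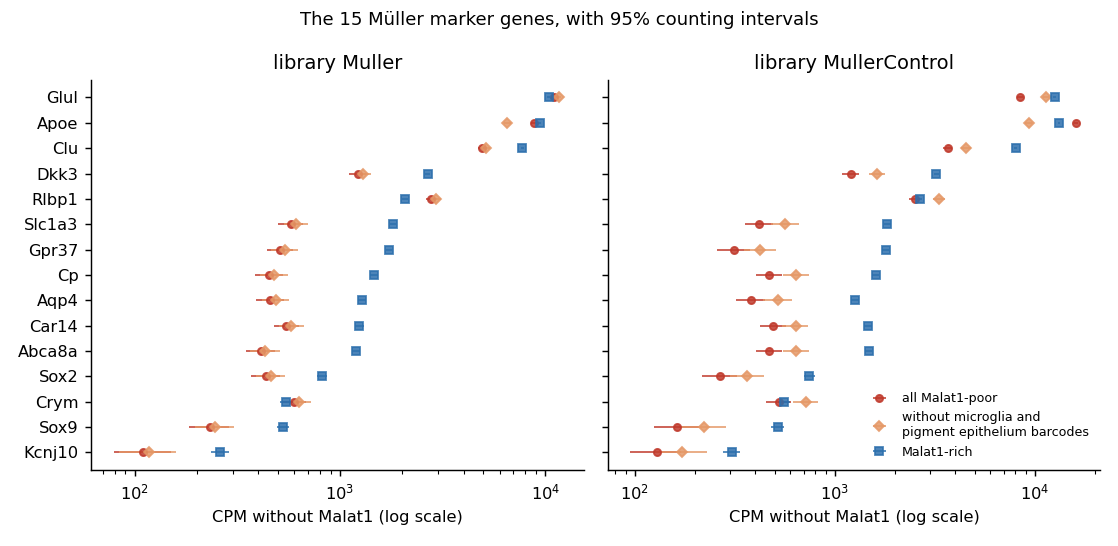
Level of each of the 15 marker genes (x axis, CPM without Malat1, log scale, bars are 95% counting intervals) in all Malat1-poor members, in members without microglia and pigment epithelium barcodes, and in Malat1-rich barcodes. Without those barcodes Glul, Rlbp1 and Crym lie near the rich side or above it, Slc1a3, Gpr37, Cp, Aqp4, Car14 and Abca8a lie well below it, and Apoe in MullerControl moves from 16058 to 9310 CPM when those barcodes are left out.

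Depth differed so much that detection was also compared after thinning each barcode to 1000 UMIs, which left 70 and 111 members without the microglia and pigment epithelium barcodes (364 and 161 were too shallow) and 588 and 371 rich barcodes (44 and 42 too shallow). At this depth Rlbp1 was found in 85.7% of Muller members (exact interval 75.3 to 92.9) and 91.9% of MullerControl members (85.2 to 96.2), against 69.4% and 81.7% of rich barcodes and 6.66% and 2.94% of rods. Slc1a3 was found in 41.4% (29.8 to 53.8) and 39.6% (30.5 to 49.4) of members, against 74.5% and 79.8% of rich barcodes and 2.73% and 0.82% of rods. Aqp4 gave 28.6% and 27.9% against 58.8% and 63.3%, and Gpr37 35.7% and 31.5% against 71.9% and 75.7%. Kcnj10 gave 17.1% (9.18 to 28.0) and 16.2% (9.90 to 24.4), and the rich shares of 20.7% and 22.6% lay within those intervals. Crym was found in 44.3% and 53.2% of members against 33.5% and 35.3%. Before thinning, Slc1a3 was found in 33.9% and 37.5% of those members and Rlbp1 in 82.0% and 87.1%. The rods were chosen for few UMIs of these markers, so their low shares follow from that choice. Before thinning the rods used had medians of 1563 and 1719 UMIs, against 1241 and 1306 UMIs in the members. The 1000 UMIs included Malat1, so rich barcodes had fewer UMIs left for other genes.

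Over all genes, more were lower than higher in the members, a balance that changed with the depth of the barcodes and the genes counted. A gene was counted as higher or lower when it differed at least 1.5-fold in that direction in both libraries, among 9251 genes with at least 20 UMIs over both sides of each library. By this count 727 genes (7.86%) were higher in the members and 2735 (29.6%) lower. With the microglia and pigment epithelium barcodes left out, the counts were 817 (8.94%) and 2606 (28.5%) of 9134, and 608 of the higher and 2353 of the lower genes were called both ways. The median gene stood at a log2 ratio of −0.27 in Muller and −0.47 in MullerControl, and each list below is read beside that shift. Malat1 was left out of every denominator, since the rule sets it; with it kept in, 1167 genes were higher and 1990 lower, so the higher share of the calls went from 21% to 37.0%. Against rich barcodes under 2000 UMIs, 963 genes were higher and 1269 lower of 4190. With both sides at 750 to 2000 UMIs and no microglia or pigment epithelium barcodes, 774 were higher and 732 lower of 2568. The median gene then stood at −0.25 in Muller and −0.03 in MullerControl. Fewer genes reached the UMI minimum in these narrower sets. With no minimum and every depth kept, 2172 were higher and 3227 lower of 14581, so depth and the minimum are not told apart. All of these ratios come from the rule's own contrast, so the counts are descriptions with no test. The ratios of the libraries correlated at r = 0.70 (Pearson) across the 9251 genes, which are not independent replicates.

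**Figure D3:**
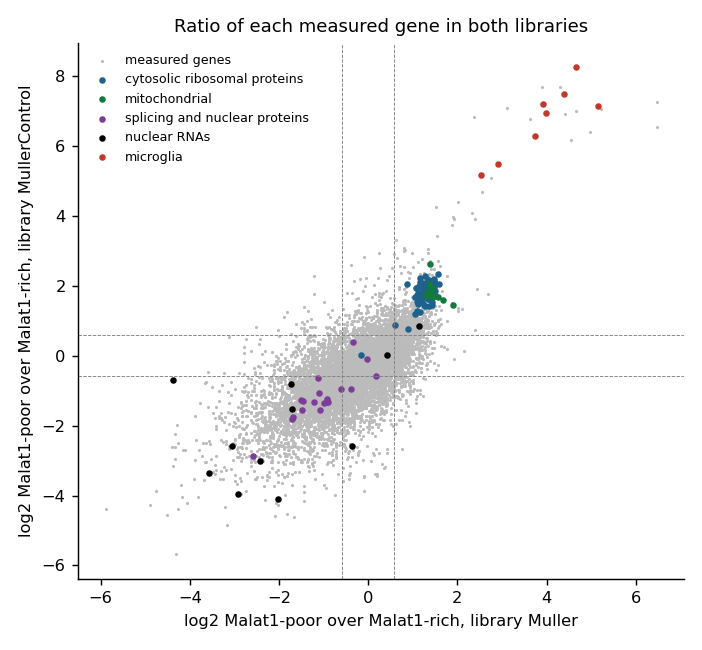
Each measured gene's log2 ratio, Malat1-poor over Malat1-rich Müller barcodes, in Muller (x axis) and MullerControl (y axis), with dashed lines at 1.5-fold. Ribosomal protein and mitochondrial genes lie together at the upper right, splicing and nuclear RNAs mostly at the lower left, and microglia genes, which came from a few barcodes, far above the rest.

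Nuclear RNAs other than Malat1 were low in the members too. Of 11 measured nuclear-retained RNAs, 8 were lower in both libraries and 1 was higher, with medians of −1.74 and −2.58 (−1.79 and −2.13 without the microglia and pigment epithelium barcodes). Meg3, an imprinted noncoding RNA, was at 116 CPM in the Muller members and 18.7 CPM in the MullerControl members, against 479 and 365 CPM on the rich side. Kcnq1ot1, the antisense RNA of an imprinted domain, was at 46.9 and 26.8 CPM against 373 and 455 CPM. Xist, which coats the inactive X chromosome, was at 91.0 and 32.1 CPM against 1115 and 355 CPM, log2 ratios of −3.57 (−4.06 to −3.08) and −3.36 (−4.15 to −2.56). Neat1, of nuclear paraspeckles, had 0 and 11 UMIs in the members, and 0 in both libraries without the microglia and pigment epithelium barcodes. Long noncoding genes by annotated biotype leaned the same way, with 128 of 262 lower and 24 higher.

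The 12 lowest ratios included 2 long microRNA host genes, Mir99ahg and Mir100hg. Mir99ahg (ENSMUSG00000090386, chr16:77236317-77773427, plus strand), spans 537111 bases. It had 12 UMIs in each library's members, 33.1 and 32.1 CPM, against 684 and 731 CPM in rich barcodes, log2 ratios of −4.26 (−5.05 to −3.47) and −4.40 (−5.18 to −3.61). Zfp950, a zinc finger gene, had 6 and 8 UMIs, at −3.90 (−4.97 to −2.82) and −3.52 (−4.48 to −2.57). The other genes of the lowest 12 besides Xist, which were Gm20342, Gm4258, Gm3764, Guf1, Lncpint, Mir100hg, Rmst, Gm49542 and Col4a5, had 0 to 5 UMIs in the members. At 1000 UMIs Mir99ahg was found in 2.86% and 2.70% of members against 41.2% and 44.5% of rich barcodes, and in 0.90% and 0.29% of rods.

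Messages for nuclear and splicing proteins, which are made in the cytoplasm like any other protein, went with the nuclear RNAs. Of 19 genes, 15 were lower in both libraries and 0 higher, with medians of −1.09 and −1.30. Pnisr, a serine/arginine-rich nuclear protein, was at 110 and 93.6 CPM against 681 and 697 CPM. Luc7l2, a U1-associated splicing factor, was at 179 and 166 CPM against 594 and 588 CPM, and Son, a speckle scaffold, at 312 and 278 CPM against 878 and 822 CPM. In rods split at the same Malat1 limit, 16 of 19 were lower and 0 higher, where 42.7% of 10194 genes were lower in both libraries and 4.12% higher. The rod split differs in depth from the Müller split. Malat1-poor rods were the deeper side, with medians of 1439 and 1745 UMIs against 773 and 1005 in Malat1-rich rods. Rod values here and below are therefore not a like-for-like comparison.

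Gene length went with these differences. Genes higher in the members had a median span of 7499 bases, a longest transcript of 1569 bases and 4 exons, and 60.2% spanned under 10000 bases. Genes lower in the members had medians of 39210 bases, 4453 bases and 10 exons, and 23.4% spanned over 100000 bases. Genes in neither set lay between, at 24493 bases, 3278 bases and 8 exons.

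Mitochondrial transcripts were high. The median mitochondrial share was 3.01% of UMIs in the Muller members and 4.78% in the MullerControl members, against 0.91% and 0.92% in rich barcodes. All 13 protein-coding genes of the mitochondrial genome were higher in both libraries, with medians of 1.40 and 1.749 (1.45 and 2.10 without the microglia and pigment epithelium barcodes). mt-Co1, a core subunit of cytochrome c oxidase, was at 4392 and 5557 CPM against 1696 and 1331 CPM. mt-Atp6, of ATP synthase, was at 5740 and 8374 CPM against 2205 and 2488 CPM. Within the members, the Malat1 and mitochondrial shares were unrelated (Spearman −0.01 over 434 and −0.05 over 272 barcodes, which share a library).

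That difference changed with the barcodes compared, more in MullerControl than in Muller. With both sides kept to 750 to 2000 UMIs, and without the microglia and pigment epithelium barcodes, 146 and 150 members met 218 and 72 rich barcodes. Depth was then closer but not equal, with medians of 929.5 UMIs in members against 1504.5 in rich barcodes in Muller, and 1090.5 against 1323.5 in MullerControl. The mitochondrial medians were 0.84 and 0.30. In Muller 11 of 11 genes were at least 1.5-fold higher, and in MullerControl 2 of 12. Of 11 measured in both libraries, 1 was higher in both. The mitochondrial shares were then 3.17% against 1.28% in Muller and 4.28% against 3.48% in MullerControl. Against rich barcodes under 2000 UMIs the Muller median was 0.59, with 6 of 12 genes higher. The MullerControl median turned to −0.13, with 0 of 12 higher. Shallow rich barcodes in MullerControl held mitochondrial shares near those of the members. In rods, 0 of the 13 genes were at least 1.5-fold higher in both libraries, with medians of 0.18 and 0.57.

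Respiratory chain subunits encoded in the nucleus, which are translated in the cytoplasm and imported, were high as well. Of 21, 18 were higher in both libraries and 0 lower, with medians of 1.01 and 0.90. Atp5e, the epsilon subunit of ATP synthase, was at 502 and 479 CPM against 182 and 185 CPM. Ndufa2, of complex I, was at 347 and 369 CPM against 130 and 122 CPM, and Cox6c, of complex IV, at 571 and 655 CPM against 266 and 240 CPM. Within 750 to 2000 UMIs the medians were 1.16 and 1.60. In rods 20 of 21 were higher, with medians of 0.78 and 1.12.

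Messages of cytosolic ribosomal proteins were high too. Of 81 measured genes of 84, 80 were higher in both libraries and 0 lower, with medians of 1.27 and 1.83 (79 higher, with 1.18 and 1.53, without the microglia and pigment epithelium barcodes). These messages took a median 5.17% of UMIs in the Muller members and 7.44% in the MullerControl members, against 1.74% and 2.10% in rich barcodes. Rps4x, of the small subunit, was at 954 and 1838 CPM against 324 and 365 CPM, log2 ratios of 1.56 (1.36 to 1.76) and 2.33 (2.17 to 2.50). Rpl26, of the large subunit, was at 383 and 811 CPM against 128 and 195 CPM. Within 750 to 2000 UMIs the medians were 1.41 and 2.25. Rods gave 74 of 81 higher, with medians of 0.86 and 1.40. After thinning, Rps24, named after its values were seen, was found in 74.3% and 80.2% of members against 36.1% and 36.1% of rich barcodes and 72.6% and 67.9% of rods.

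Many ribosomal protein mRNAs begin with a C followed by a run of pyrimidines, the terminal oligopyrimidine tract through which their translation is controlled. The sequences below show the region from 10 bases before to 20 after the RefSeq transcript start (GRCm38.p6), on the transcribed strand. Capitals mark a match to the letter pattern given after them. They were picked after their values were seen, as 2 genes with a match and 2 without, all higher in the members. The match of Rpl39 begins 6 bases after the annotated start and not at it. RefSeq lists another start of Rps24 (chr14:24490743-24490772), whose window holds no match. Log2 ratios in Muller and MullerControl were 1.37 and 2.17 for Rps24, 1.45 and 2.17 for Rpl39, 1.59 and 2.06 for Rpl26, and 1.56 and 2.33 for Rps4x.
Rps24 (chr14:24490668-24490697, plus strand): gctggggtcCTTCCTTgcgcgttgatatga
Rpl39 (chrX:37085203-37085232, minus strand): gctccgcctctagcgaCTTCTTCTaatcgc
Rpl26 (chr11:68901556-68901585, plus strand): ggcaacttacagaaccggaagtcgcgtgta
Rps4x (chrX:102189372-102189401, minus strand): gctgggcggagcaacccaggctccagcgcg
A C followed by at least 5 C or T, starting within 10 bases of the start, was found in 35 of 76 promoters (46.1%) of the 64 ribosomal protein genes matched in RefSeq, against 6302 of 32851 promoters overall (19.2%). Only the transcribed strand was searched. For the next shares, genes were called without the microglia and pigment epithelium barcodes. Among genes higher in the members but not of that family the share was 19.8%, and among genes lower in the members 19.3%. Genes with and without these letters were both high, and a match is not evidence of a working tract. Nor does a missing match at an annotated start show that the mRNA lacks the tract.

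Gm42418 (ENSMUSG00000098178, chr17:39846958-39848788), a locus that RefSeq lists as an 18S ribosomal RNA-related sequence, was the 1 member of the nuclear RNA list that was higher. It was at 84052 and 64747 CPM in the members against 38286 and 35899 CPM in rich barcodes, log2 ratios of 1.13 and 0.85, and it was singled out after its values were seen. AY036118 overlaps it on the other strand, so their reads may not be told apart.

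**Figure D4:**
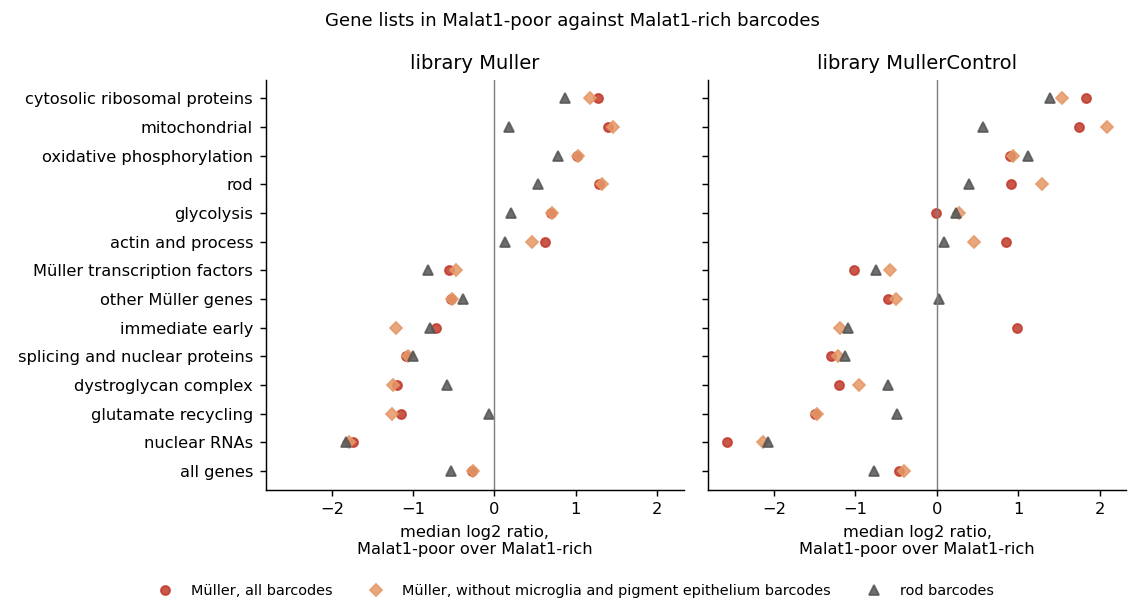
Median log2 ratio of each gene list (x axis), Malat1-poor over Malat1-rich barcodes, in Muller (left) and MullerControl (right), for all Müller barcodes, for those without microglia and pigment epithelium barcodes, and for rod barcodes split the same way. Ribosomal, mitochondrial and respiratory chain genes lie right of 0 and nuclear RNAs left. The immediate early list in MullerControl crosses from 0.99 to −1.19 when microglia and pigment epithelium barcodes are left out. Malat1-poor rods were deeper than Malat1-rich rods, the reverse of the Müller barcodes.

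Glial membrane transporters and anchors were low in the members. Of 11 measured genes of glutamate and glutamine handling other than Glul and Slc1a3, 7 were lower and 1 higher, with medians of −1.15 and −1.499. Slc38a3, which exports glutamine, was at 66.2 and 58.9 CPM against 337 and 421 CPM. The GABA transporter Slc6a11 was at 96.5 and 85.6 CPM against 324 and 395 CPM. Slc1a4, a neutral amino acid transporter, had 0 UMIs in the members of either library, which allows up to 8.27 and 8.03 CPM (3 UMIs over each library's members). In rods 3 of 9 were lower, beside 42.7% of all genes measured there. Within 750 to 2000 UMIs the Müller medians were −1.38 and −1.86.

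The dystroglycan complex, which anchors water and potassium channels at endfeet, stood likewise. Of its 11 measured genes 9 were lower in both libraries and 0 higher, with medians of −1.19 and −1.21. Dag1, the dystroglycan precursor, was at 49.6 and 40.1 CPM against 150 and 178 CPM, on 18 and 15 UMIs. Dtna, a dystrobrevin, was at 44.1 and 56.2 CPM against 169 and 194 CPM, and Utrn, utrophin, at 30.3 and 40.1 CPM against 111 and 98.1 CPM. Of 8 ion and water handling genes, 2 were lower and 0 higher. Fxyd1, a regulator of the sodium pump, was at 582 and 808 CPM against 542 and 867 CPM.

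Retinoid and lipid genes went both ways. Dbi, the small acyl-CoA-binding protein, was high, at 2368 and 2994 CPM against 1321 and 1656 CPM. Membrane enzymes were low: Acsl3, an acyl-CoA synthetase, was at 2341 and 1942 CPM against 7671 and 6634 CPM, and Degs1, a sphingolipid desaturase, at 105 and 131 CPM against 244 and 301 CPM. By list, 3 of 9 visual cycle genes were higher and 3 lower, and 2 of 10 lipid handling genes were higher and 5 lower. With the microglia and pigment epithelium barcodes left out, these were 2 and 3 of 9, and 2 and 5 of 10.

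Among 21 transcription factors and Notch effectors of Müller cells, 10 were lower and 1 higher, with medians of −0.56 and −1.01 (8 and 1, at −0.47 and −0.58, without the microglia and pigment epithelium barcodes). Sox8 was at 74.4 and 40.1 CPM against 349 and 271 CPM. Hes5, a Notch effector, was at 74.4 and 110 CPM against 344 and 430 CPM, and Notch1 at 57.9 and 80.3 CPM against 239 and 257 CPM. The higher gene was Otx2, also a photoreceptor and bipolar cell factor, at 71.7 and 37.5 CPM against 21.2 and 19.2 CPM. Its MullerControl ratio turned to −1.58 against rich barcodes under 2000 UMIs.

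Of 24 further Müller genes, 4 were higher and 9 lower, with medians of −0.53 and −0.61. That lean was lost at lower depth: 8 of 19 were higher and 6 lower both against rich barcodes under 2000 UMIs, with medians of −0.013 and 0.66, and within 750 to 2000 UMIs, with medians of 0.31 and 0.27. The low ones at full depth included secreted and matrix proteins. Col9a1, a collagen, was at 68.9 and 69.6 CPM against 528 and 505 CPM. Timp3, a metalloproteinase inhibitor, was at 135 and 161 CPM against 577 and 626 CPM. Htra1, a secreted protease, was at 174 and 144 CPM against 648 and 758 CPM, and Ptn, pleiotrophin, at 689 and 455 CPM against 1772 and 1928 CPM. The reactive gliosis list had 3 of 6 lower and 0 higher, with Cd44 at 35.8 and 18.7 CPM against 86.0 and 99.5 CPM on 13 and 7 UMIs.

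The count of glycolytic genes depended on the barcodes compared. Of 18, 0 were higher in both libraries and 3 lower, with medians of 0.69 and −0.015, and without the microglia and pigment epithelium barcodes 5 were higher and 3 lower. Against rich barcodes under 2000 UMIs 10 of 17 were higher and 3 lower, with medians of 0.86 and 0.87. Within 750 to 2000 UMIs 12 of 17 were higher and 3 lower, with medians of 0.93 and 0.91. Pkm, pyruvate kinase, was at 1491 and 928 CPM against 764 and 694 CPM, and Pgam1, phosphoglycerate mutase, at 684 and 375 CPM against 344 and 308 CPM, both past 1.5-fold in Muller but not in MullerControl. The low genes included the glucose transporter Slc2a1, at 102 and 134 CPM against 497 and 595 CPM, and the lactate transporter Slc16a1, at 138 and 85.6 CPM against 347 and 438 CPM.

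Of 17 actin and process genes, 9 were higher and 2 lower, but 5 and 2 without the microglia and pigment epithelium barcodes. Tmsb10, an actin-binding thymosin, was at 223 and 227 CPM against 95.6 and 71.8 CPM. Tmsb4x, its more widely expressed relative, was at 819 and 3187 CPM against 164 and 187 CPM, and at 366 and 519 CPM without those barcodes. The lower genes were the adhesion and polarity proteins Cdh2, N-cadherin (361 and 367 CPM against 1400 and 1315), and Crb1 (130 and 126 CPM against 333 and 419). Heat shock genes were higher for 3 of 12 and lower for 0, and interferon-induced genes higher for 2 and lower for 4 of 16.

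Immediate early genes moved with a few barcodes. Of 16 measured in both libraries, 1 was higher and 2 lower, with medians of −0.72 in Muller and 0.99 in MullerControl. When those of microglia and pigment epithelium were left out, 10 of 14 were lower and 0 higher, and the medians were −1.21 and −1.19. Junb, an early response factor, was at 196 and 853 CPM in all members and at 93.7 and 113 CPM without those barcodes, against 348 and 339 CPM on the rich side. Fosb had 6 and 3 UMIs in all members. In rods 13 of 17 immediate early genes were lower in both libraries and 0 higher.

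Most of the 12 highest genes of the Malat1 split moved with them too. Ctss, C1qa, C1qb and C1qc are microglia genes and Ttr is made by pigment epithelium, and these 5 came to log2 ratios of 3.91 to 5.21 in Muller. Ptgds, a prostaglandin synthase, went from 1.87 and 3.75 to −0.22 and −0.17 without the microglia and pigment epithelium barcodes, and Cst3, cystatin C, from 1.54 and 3.43 to 0.72 and 0.38. Bag1, a cochaperone, stood at 1.41 and 1.94 without them.

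Rod transcripts were present in nearly every member. The 13 rod genes took a median 1.70% of UMIs in the Muller members and 0.90% in the MullerControl members, against 0.50% and 0.24% in rich barcodes. Of the 13, 12 were higher in both libraries and 0 lower, with medians of 1.29 and 0.91. Cnga1, the rod cyclic nucleotide-gated channel, was at 549 and 292 CPM against 181 and 141 CPM, and Nr2e3, a rod transcription factor, at 372 and 171 CPM against 135 and 112 CPM. The shallower a member, the higher its rod share (Spearman −0.36 and −0.35 over 434 and 272 barcodes). Within 750 to 2000 UMIs, where the members were still shallower, the rod medians were 0.77 and 0.25 and 1 of 13 genes was higher in both libraries. Rod RNA moved with the same split as the ribosomal and mitochondrial genes, and its part in their ratios was not tested. Leaving out members with at least 3% rod genes gave 732 genes higher and 2658 lower.

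**Figure D5:**
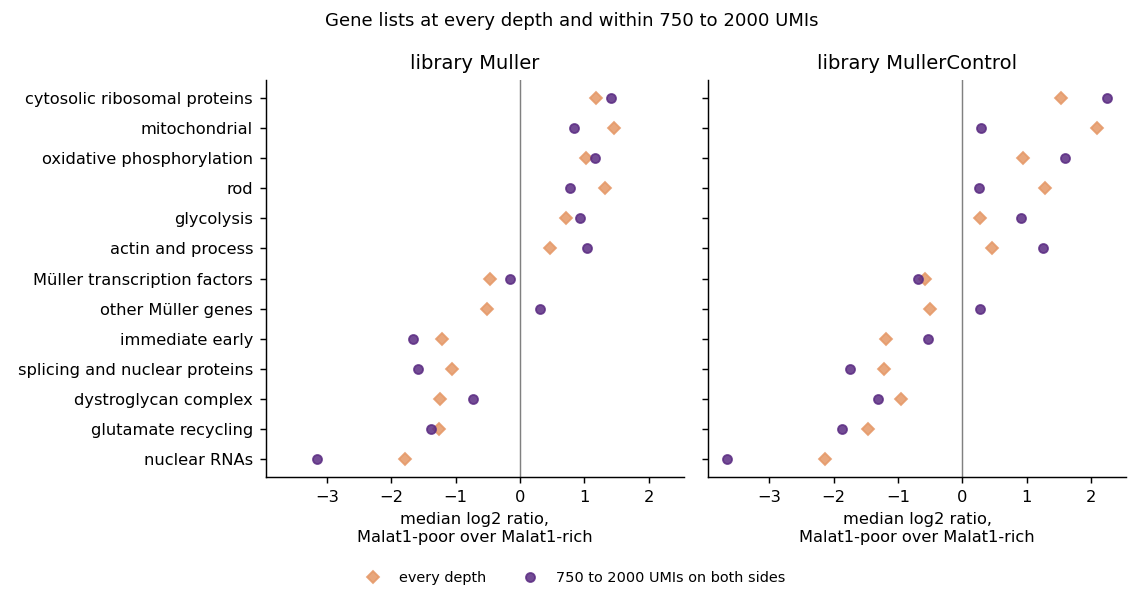
Median log2 ratio of each gene list (x axis), Malat1-poor over Malat1-rich barcodes without microglia and pigment epithelium barcodes, at every depth (diamonds) and with both sides at 750 to 2000 UMIs (circles). Ribosomal, respiratory chain and nuclear RNA lists lie as far from 0 or farther within those limits, where members were still shallower than rich barcodes. The mitochondrial and rod lists move toward 0, to 0.84 and 0.77 in Muller and to 0.30 and 0.25 in MullerControl.

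Other neurons left traces that differed between libraries. The 14 bipolar genes outside the rule summed to 992 CPM (893 to 1100) in the Muller members and 203 CPM (160 to 255) in MullerControl, against 550 and 281 CPM in rich barcodes and 793 and 212 CPM in rods. Scgn, secretagogin of cone bipolar cells, had 27 and 2 UMIs, and Neurod4 40 and 4. Without the microglia and pigment epithelium barcodes the 14 genes summed to 1022 and 263 CPM. Members, rich barcodes and rods were all held under 5 UMIs of the 7 rule genes, which limits bipolar transcripts in each. The 12 amacrine genes summed to 805 and 334 CPM against 897 and 749 CPM (834 and 431 CPM without those barcodes), with Meis2 at 23 and 4 UMIs. The 10 cone genes summed to 449 and 551 CPM against 436 and 205 CPM, with Opn1sw, the short-wavelength opsin, at 46.9 and 128 CPM. Horizontal cell genes summed to 1949 and 1466 CPM against 1655 and 1688 CPM, a list that holds Vim, which Müller cells also express. Astrocyte genes summed to 1301 and 958 CPM against 932 and 1194 CPM, endothelial genes to 750 and 845 CPM against 2378 and 2576 CPM, and pericyte genes to 267 and 150 CPM against 259 and 198 CPM. Cdh5, Esam, Pecam1, Ly6c1 and Cldn5, which define endothelium, were at 0 in the members of both libraries.

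Retinal ganglion cell genes, the fate that the study asks about, had few UMIs. The 16 genes summed to 218 CPM (172 to 271) on 79 UMIs in the Muller members and 177 CPM (137 to 225) on 66 UMIs in MullerControl. Rich barcodes held 116 and 114 CPM and rods 97.9 and 34.1 CPM. The sum was thus highest in the members of both libraries, and the reason was not tested. In the 434 and 272 members without microglia and pigment epithelium barcodes it was 222 and 230 CPM. Pou4f1, Pou4f2, Pou4f3, Atoh7, Slc17a6 and Nrn1 had 0 UMIs in the members of both libraries, so levels of up to 8.27 and 8.03 CPM were not detectable at this depth. Ebf3, Nefm and Nefl also had 0 UMIs in the MullerControl members, so 6 and 9 of the 16 genes were at 0. In either library 0 members held at least 3 of the 16 genes. Rbpms, an RNA-binding protein of ganglion cells, had 11 and 20 UMIs. Ptbp1, a splicing repressor in glia, was at 66.2 and 56.2 CPM in the members and 60.8 and 87.4 CPM in rich barcodes, a library log2 ratio of 0.23 (−0.60 to 1.05), Muller over MullerControl.

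The rule did not use the library, but it limited Malat1, the markers and the bipolar genes in the members of each. Of 5640 genes with at least 20 UMIs over both, 1171 (20.8%) were at least 1.5-fold higher in Muller and 666 (11.8%) lower, and the median gene stood at 0.16 on the log2 scale. In the 434 and 272 members without microglia and pigment epithelium barcodes the counts were 863 (17.4%) and 455 (9.18%) of 4956. The median was 0.09. Each side is 1 library, so these counts describe 2 libraries and not the treatment.

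The genes lowest in Muller were mostly immune genes. Laptm5, Selplg, Tyrobp, Ctsd, Cx3cr1, Cd68, Trem2 and Mpeg1 are expressed by microglia and Hspa1b is a heat shock gene, at log2 ratios of −2.62 to −3.06. Tyrobp, an immune receptor adaptor, had 55 and 409 UMIs in the members. Microglia barcodes numbered 9 and 18, and all barcodes set apart had median depths of 1023.5 and 4701.5 UMIs. The part of number and depth in these ratios was not tested.

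Of the 10 genes highest in Muller, Pcp2 (482 against 45.5 CPM) and Gng13 (317 against 48.2 CPM) are bipolar genes of the rule, which limits their UMIs in each member, so their levels are a description only. The synaptic genes Sncb, Syt1 and Snap25 differed from rods: Sncb, beta-synuclein, was at 289 and 58.9 CPM, a log2 ratio of 2.25 (1.60 to 2.90) against 0.39 in rods. Syt1, a calcium sensor of vesicle release, was at 380 and 120 CPM, 1.64 (1.16 to 2.12) against 0.17. Snap25, a vesicle fusion protein, was at 276 and 91.0 CPM, 1.57 (1.02 to 2.13) against 0.12. These are genes of neurons, and whether they came with the bipolar and amacrine transcripts was not tested. Tkt, transketolase, was at 254 and 110 CPM, 1.19 (0.66 to 1.72) against 1.40 in rods. Ccdc59, Pcmtd2 and Scg5 were also among the 10, at 1.12 to 1.34.

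Ribosomal protein messages were lower in Muller, with 59 of 81 at least 1.5-fold lower, 0 higher and a median of −0.73. In the 434 and 272 barcodes, 33 of 81 were lower and the median was −0.52, and in rods the median was −0.25. Mitochondrial transcripts had medians of −0.28, and −0.58 without microglia and pigment epithelium barcodes, against −0.31 in rods. Of the 15 Müller markers 2 were higher in Muller and 1, Apoe, lower. The higher genes were Gpr37 and Sox2, each at a log2 ratio of 0.70, and 0 were called in either direction without the microglia and pigment epithelium barcodes. Malat1 itself stood at 0.76 (0.70 to 0.83), a description only, since the rule capped it in each member. It was at 13145 and 7738 CPM in all members. Without the microglia and pigment epithelium barcodes it was at 12951 and 5688 CPM, which is further apart.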

How the data were processed

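The values are whole-number UMI counts per gene and barcode in 2 deposited matrices, which per the file headers the authors made with Cell Ranger 4.0.0. Seurat 4.0.5, mm10 and GRCh38 appear as well, per the submitters' processing notes. The smallest deposited total was 500 UMIs, so barcodes had been filtered before deposit. Members and gene lists were chosen with earlier results of these data known. UMIs were summed over barcodes and scaled to 1000000 UMIs other than Malat1. A log2 ratio adds 1 UMI to each sum; its 95% interval comes from Poisson counting error, and shares have exact binomial (Clopper-Pearson) intervals. Reads amplified from 1 molecule are counted once. With 1 library per arm no test was possible. A gene was measured at 20 UMIs or more over the sums compared and called at 1.5-fold.

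Genes named in the text follow a rule: among genes with at least 100 UMIs in each library, the 12 highest and 12 lowest by the smaller ratio of the Malat1 split; the 10 highest and 10 lowest between libraries, at 50 CPM or more in 1; up to 4 per list; and the markers, Malat1, Ptbp1, Atoh7, Pou4f2 and Rbpms. Doublets were not removed: Scrublet in scanpy 1.11.5 made 2 and 0 automatic calls and so had not worked, and the highest scores were left out only as an alternative. Alternatives were the rule's limits, the denominator, the added UMI, the UMI minimum, equal weight per barcode, the depth of the rich side, and those added after seeing the data (without microglia and pigment epithelium barcodes, without rod-rich members, a common depth range, without the barcode richest in a gene). Spans and biotypes came from GENCODE M21, matched for 32235 of 32285 features, and sequences from RefSeq, GRCm38.p6. Python 3.11.15, numpy 2.4.6, scipy 1.17.1 and pandas 2.3.3 were used. The ratio step was tested on simulated counts. Some genes the rule names are not reported here.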

Additional observations from a re-analysis of the deposited data

Results flagged for a closer look

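Values of the Malat1 split that pointed in opposite directions in the 2 libraries stand out, and in each case the difference between libraries was not tested, since each arm is 1 library. The immediate early list had a median log2 ratio of −0.72 in Muller and 0.99 in MullerControl, and Junb stood at −0.82 and 1.32. Both were negative in both libraries without the microglia and pigment epithelium barcodes, at −1.21 and −1.19 for the list and −1.85 and −1.54 for Junb. Meis2, a factor of amacrine cells, stood at 1.07 and −1.35 on 23 and 4 UMIs, and at 1.09 and −1.23 without those barcodes. Opn1mw, the middle-wavelength cone opsin, stood at −1.81 and 1.25 on 5 and 16 UMIs, and at −1.73 and 1.69 without them.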

How the results depend on the processing

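No paired analysis was possible because each arm is 1 library and the labels give both the same replicate number. Values were compared over 16 alternatives and, for some genes, without the barcode richest in that gene. Over all of these, 3209 of 3830 values for single genes and lists and 54 of 78 counts and shares moved less than their counting interval or, for counts, less than 1.5-fold. Of the single values 595 moved further and 26 turned in sign. The members' share of passing barcodes, 3.75% and 2.83%, moved to 1.66% and 1.54% with markers at 3% or more, 1.35% and 2.26% with no bipolar UMI, 0.95% and 1.71% at 1000 UMIs or more, 3.25% and 2.45% without the highest doublet scores, 1.23% and 1.44% at 750 to 2000 UMIs, and in Muller to 3.09% with Malat1 under 2% and 3.35% with rod genes under 3%. Genes higher in both libraries, 727, were 1167 with Malat1 in the denominator and 2172 with no UMI minimum. Genes lower in both, 2735, were 1681 with no bipolar UMI, 1269 against rich barcodes under 2000 UMIs and 732 at 750 to 2000 UMIs (774 higher), so the higher share of calls, 21%, was 43.1% and 51.4% at those depths, and 40.2% with no UMI minimum. Genes higher and lower between libraries, 1171 and 666, were 676 and 403 with markers at 3% or more, 4364 and 2933 with no UMI minimum, 499 and 360 at 750 to 2000 UMIs, and 778 higher with no bipolar UMI.

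Some signs turned. Without the microglia and pigment epithelium barcodes, MullerControl values became −1.19 for the immediate early list, −1.54 for Junb and −0.17 for Ptgds, and the Muller value of Ptgds −0.22. Against rich barcodes under 2000 UMIs, MullerControl values became −0.13 for the mitochondrial list, −0.25 for mt-Atp6, 0.66 for the further Müller genes, −0.63 for Nr2e3, −1.58 for Otx2 and 0.47 for Clu, and Muller values −0.39 for Meis2 and 0.34 for Clu. At 750 to 2000 UMIs, MullerControl values became −0.54 for the immediate early list, 0.27 for the further Müller genes, −1.62 for Junb, −0.77 for Nr2e3 and 0.73 for Clu, and Muller values −0.65 for Meis2 and 0.56 for Clu. With every barcode weighted equally, MullerControl gave −0.50 for the immediate early list and −0.60 for Junb. In Muller, members of at least 1000 UMIs gave 0.10 for the immediate early list and 0.10 for Junb, markers at 3% or more −0.024 for Ptgds, no bipolar UMI 0.031 for Dmd, and removal of the highest doublet scores 0.58 for Opn1mw. The microglia and pigment epithelium values follow from the barcodes left out, and the cause of the others was not tested. Depth limits what low genes can show: in 70 and 111 members thinned to 1000 UMIs, a gene never seen may still be in up to 4.29% and 2.70% of them.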
